A study of Delphinapterus leucas with 24 samples.

Results

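The 12 globin-rich blood libraries of a beluga whale series were set against its 12 globin-poor libraries. Together they make up all 24 libraries, and both sets were selected on 1 measured value, the amount of globin RNA in the library. For each library the deposited TPM (transcripts per 1000000) was summed over the 5 assembled features that carry either of 2 globin Entrez Gene IDs. The 12 libraries with the highest sums form the globin-rich set and the 12 with the lowest the globin-poor set. Delphinapterus leucas is an Arctic toothed whale, and whole blood was sampled from animals in Bristol Bay, Alaska, in August and September of 2012, 2013 and 2014. The globin-rich set held 5 female and 7 male libraries, and the globin-poor set 4 female and 8 male libraries. The labels name no treatment, age or reproductive state. They do not say whether an animal was sampled more than once, so a p-value here speaks of the spread among libraries and not among animals known to differ.

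Haemoglobin carries oxygen in red cells and is built from alpha-type and beta-type globin chains with heme. In mammals the mature red cell has no nucleus and makes no new RNA. Its precursor, the reticulocyte, enters the blood with a store of RNA in which globin messages dominate. White cells and platelets supply most of the remaining RNA of whole blood, so globin RNA takes a share of the total that can vary from one sample to the next. In bulk blood, fewer cells of a type and less RNA per cell cannot be told apart.

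The files pair Entrez Gene IDs with no gene names. Genes are therefore given by ID, at most 2 per direction in a comparison, and no role is stated for them. Whether genes that follow globin belong to red cell precursors was not looked up, nor was whether IDs beyond these 2 belong to other globin genes. The markers given for the libraries are the 2 IDs that chose them, so they are no independent check of the label.

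Globin took most of its space through 3 of the 5 features. TR28281|c0_g1, which carries the first globin ID, lay between 128788 and 327269 TPM in globin-rich libraries (median 195646), against 13212 to 117169 TPM in globin-poor libraries (median 68332). TR7616|c0_g1, which carries the second, lay between 59779 and 146454 TPM in globin-rich libraries and between 7397 and 58402 TPM in globin-poor ones. TR7616|c0_g2, also with the second ID, lay between 51031 and 126173 TPM in globin-rich libraries and between 6379 and 49712 TPM in globin-poor ones. The sets do not overlap in any of these 3 features, which is what the choice of libraries gives, and they are described without a test.

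The other 2 globin features were far lower. TR34090|c0_g1, with the first ID, had a median of 153 TPM in globin-rich libraries and 42.8 TPM in globin-poor ones. TR6457|c0_g1, with the second ID, had a median of 110 TPM in globin-rich libraries and 29.9 TPM in globin-poor ones. The balance between the 2 IDs moved little while their sum moved much. The TPM of the first ID divided by that of the second lay between 0.949 and 1.52 in globin-rich libraries (median 1.14) and between 0.960 and 1.28 in globin-poor libraries (median 1.08). The globin-poor libraries all lay within the globin-rich range, and 2 globin-rich libraries, female 2014 replicate 1 and male 2014 replicate 4, lay above every globin-poor one.

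**Figure D1:**
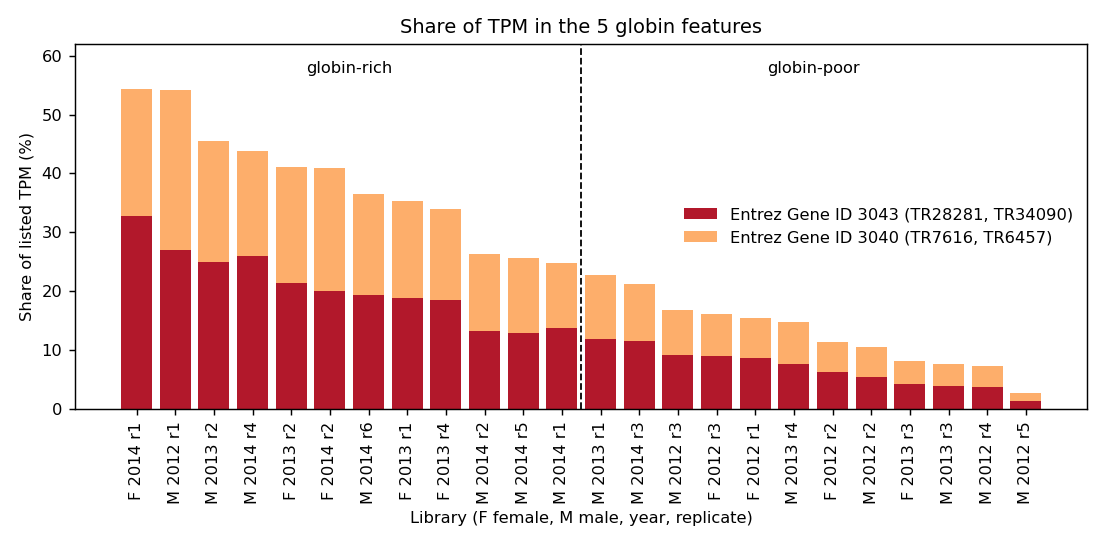
Share of the listed TPM (percent, vertical axis) in the globin features of each library, stacked by Entrez Gene ID, with libraries ordered by falling globin TPM and a dashed line between the sets. The bars run from 54.3% in female 2014 replicate 1 to 2.72% in male 2012 replicate 5 with no wide gap at the line.

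The globin share was 38.5% ± 10.1 in globin-rich libraries and 12.9% ± 5.97 in globin-poor libraries (SD, n = 12 each). It formed a graded series and not a pair of separate clusters. The last library inside the globin-rich set, male 2014 replicate 1, had 246772 globin TPM (24.8%), and the first outside it, male 2013 replicate 1, had 225452 globin TPM (22.6%). Female 2014 replicate 1 and male 2012 replicate 1 headed the series at 54.3% each. Male 2012 replicate 5 closed it at 2.72%.

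The sets were uneven over the years. The globin-rich set held 1 of 8 libraries of 2012, 4 of 8 of 2013 and 7 of 8 of 2014. In 2013 the 3 libraries sampled on 24 August were all globin-rich. The other 2013 libraries were sampled on 23, 28 and 30 August and held 1 globin-rich library, female 2013 replicate 4. By sex, 5 of 9 female and 7 of 15 male libraries were globin-rich.

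Other properties of the libraries moved with globin. Globin-rich libraries listed a median of 510.5 of the other features at 0, against 374.5 in globin-poor libraries. The median deposited TPM of the other features was 2.31 ± 0.565 in globin-rich libraries and 3.76 ± 0.546 in globin-poor libraries (SD, n = 12 each). TPM adds up to a fixed total, so the summed TPM of the other features drops when globin takes more of it. That sum was 612369 ± 100656 TPM in globin-rich libraries and 865502 ± 58266 TPM in globin-poor libraries (SD, n = 12 each). How much of the lower median goes with this lower sum was not tested. TPM keeps no depth, and the part of sequencing depth or RNA quality in the results below was not tested.

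To ask which genes follow or oppose globin, the 5 globin features were left out. The remaining TPM was rescaled by the median ratio (each library divided by its median ratio to the geometric mean of all libraries) and summed per Entrez Gene ID. Of 9853 such sums, 9831 had a mean of at least 1 rescaled TPM and were tested. The relation was fitted in limma as a slope on the globin ratio, which is globin TPM over all other TPM on the log2 scale, with year and sex in the model. A slope of 1 means that log2(rescaled TPM + 1) rose by 1 for each doubling of the ratio. The slope uses every library and rests on the same measured globin value that made the sets. Values are described by set, and fits of one set against the other are given as alternatives only.

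Genes that rose with globin were few, most of them with slopes below 0.5, and 1 gene fell. Of 9831 genes, 92 rose with the globin ratio (0.936% of genes tested) and 1 fell (0.0102%) at a Benjamini-Hochberg adjusted p under 0.05 in limma. Without adjustment, 962 genes had a positive and 86 a negative slope at p under 0.05. The median slope over all genes was 0.03. The slopes of the 92 genes ran from 0.14 to 1.13 with a median of 0.37. Of these genes, 70 had a slope of at least 0.25, 31 of at least 0.5 and 12 of at least 0.75.

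The difference between the sets had the same long upper tail. The globin-rich minus globin-poor difference of mean log2(rescaled TPM + 1) ran from -0.82 to 2.53 over all genes tested, with a median of 0.09. A difference of at least 1 was seen in 43 genes and one of -1 or less in 0. At a smaller size, 141 genes were at 0.5 or more and 10 were at -0.5 or less. Among the 92 genes the difference ran from 0.17 to 2.53, with a median of 0.87. Unlike the slopes, these differences are not adjusted for year or sex. The sets were uneven over the years, so year and globin cannot be told apart in them.

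**Figure D2:**
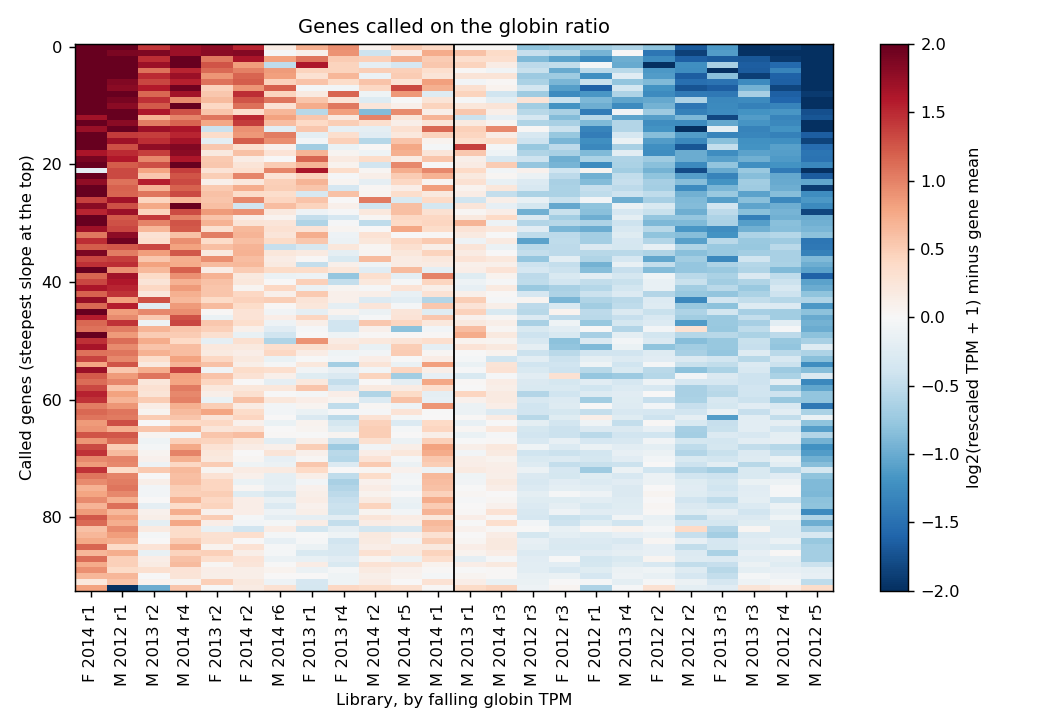
Each row is 1 of the 93 called genes and each column 1 library, with log2(rescaled TPM + 1) minus the gene's mean as colour, capped at 2 and -2. Libraries run by falling globin TPM from left to right and the line parts the sets. Most rows are redder on the globin-rich side and bluer on the globin-poor side, with single libraries that depart from this, and the bottom row is the single gene with a falling slope.

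The 2 genes with the largest difference between the sets tracked globin almost in proportion. Entrez Gene ID 212 lay between 582 and 2773 rescaled TPM in globin-rich libraries (median 872), against 36.8 to 528 rescaled TPM in globin-poor libraries (median 174). Every globin-rich library was above every globin-poor one. Its mean was 1141 ± 672 rescaled TPM in globin-rich libraries and 214 ± 154 in globin-poor libraries (SD, n = 12 each), a difference of 2.53 on the log2 scale. The slope was 1.02 ± 0.05 (SE), with an adjusted p of 3.30e-14 in limma.

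Entrez Gene ID 3042 lay between 354 and 2498 rescaled TPM in globin-rich libraries (median 766), against 18.1 to 339.9 rescaled TPM in globin-poor libraries (median 189). The sets did not overlap here either, although the closest libraries were at 354 and 339.9 rescaled TPM. Its mean was 946 ± 667 rescaled TPM in globin-rich libraries and 175 ± 98.5 in globin-poor libraries (SD, n = 12 each), a difference of 2.45. The slope was 1.13 ± 0.06 (SE), with an adjusted p of 2.25e-12 in limma. Whether this ID stands for a further globin gene was not looked up, so its slope is not read as a gene other than globin following globin.

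Both genes had a positive slope within each year. In fits of 1 year with sex in the model, ID 212 had a slope of 1.03 ± 0.06 (SE) in 2012, 0.97 ± 0.08 in 2013 and 1.02 ± 0.22 in 2014. ID 3042 had slopes of 1.26 ± 0.06, 0.98 ± 0.09 and 0.88 ± 0.26 in the same years. With 8 libraries, the fit of 2014 alone called 0 genes in limma, with 511 at an unadjusted p under 0.05, and ID 212 had an adjusted p of 0.485 there. The year 2014 also spans the narrowest range of globin, from 21.2% to 54.3%, where 2012 spans 2.72% to 54.3% and 2013 spans 7.64% to 45.5%.

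**Figure D3:**
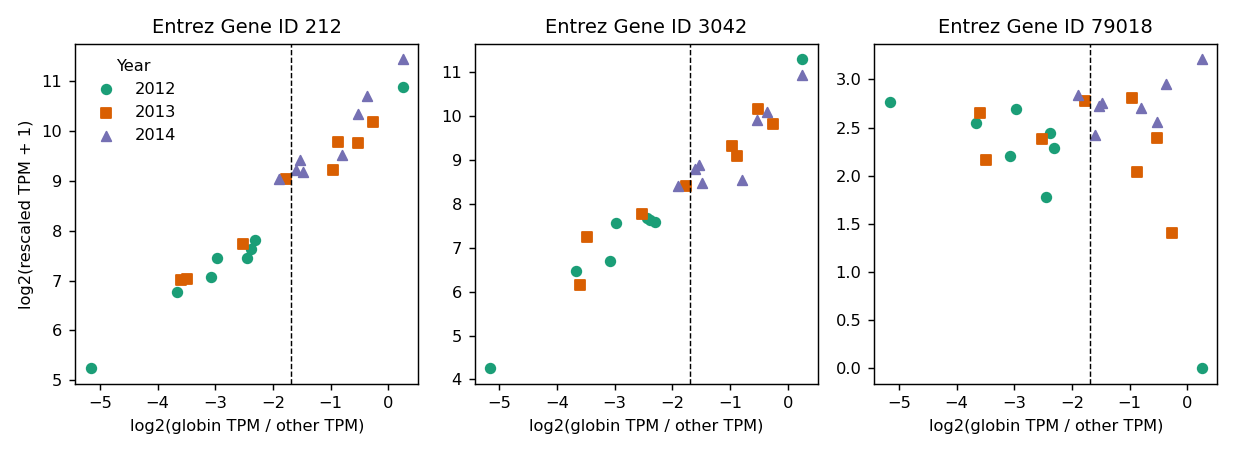
log2(rescaled TPM + 1) of the 3 genes named by ID against log2 of the globin ratio, 1 point per library, coloured and shaped by year, with a dashed line between the sets (globin-rich on its right). IDs 212 and 3042 climb along the whole range in every year, while ID 79018 has no such climb. It is lowest in male 2012 replicate 1 (0) and male 2013 replicate 2 (1.64 rescaled TPM). It is highest in female 2014 replicate 1 (8.24 rescaled TPM).

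The gene with a falling slope was a weak case. Entrez Gene ID 79018 lay between 0 and 8.24 rescaled TPM in globin-rich libraries (median 5.20) and between 2.42 and 6.14 rescaled TPM in globin-poor libraries (median 4.64), so the sets overlapped. Its slope was -0.32 ± 0.08 (SE, adjusted p = 0.0433 in limma), but its means were 4.68 ± 2.24 rescaled TPM in globin-rich libraries and 4.62 ± 1.14 in globin-poor libraries (SD, n = 12 each). It was named because it was the single call in its direction, after its values were seen, and its level is under the minimum set for named genes. Without male 2012 replicate 1, where it was listed at 0, the slope was -0.12 and no longer passed (adjusted p = 1). In 2014 alone its slope was 0.24.

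The upper end of the pattern was read in 12 called genes. They have the largest differences among those with a mean of at least 10 rescaled TPM in the globin-rich set. That choice fixes large differences in advance, so the values describe these genes and give no further support. Their difference between the sets ran from 1.76 to 2.53 and their slopes from 0.72 to 1.13, with adjusted p from 3.30e-14 to 4.21e-05 in limma. Their means ran from 13.5 to 1141 rescaled TPM in globin-rich libraries and from 2.32 to 214 in globin-poor libraries. In 5 of the 12 every globin-rich library was above every globin-poor one. These 5 were all such genes among the 9831 tested (0.0509%), and in 0 genes was every globin-rich library below every globin-poor one.

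The 92 genes were on the whole well expressed. Their median level over the 24 libraries was 36.8 rescaled TPM, against 16.6 over all genes tested. Of the 92, 75 had a mean of at least 10 rescaled TPM and 30 of at least 100, where 6590 and 700 of the 9831 genes tested did. Together they held a modest part of the TPM outside globin. They took 3.59% ± 0.752 of it in globin-rich libraries and 2.39% ± 0.311 in globin-poor libraries (SD, n = 12 each), with ranges of 2.69% to 4.94% and 1.59% to 2.85%. The genes were called for rising with globin in these libraries, so a larger share in the globin-rich set follows from the choice.

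Where an ID is carried by several assembled features, each feature gives its own reading of the slope. Of the 92 genes, 24 had at least 2 tested features, and in 18 of these (75.0%) every feature had a positive slope. Of their 54 features, 48 were positive, and the same count over all IDs with several features was not made. Over all IDs with at least 2 tested features, 1085 of 2767 (39.2%) had positive slopes in every feature. These features were part of the sums that made the calls, so the shares describe them.

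Slopes were also read in libraries that took no part in the fit behind a call. The rescaling and the filter on mean level still used all 24 libraries, so these readings are not fully independent of the calls. When 2012 was held out, the other years called 40 genes as rising (0.407% of genes tested). In 2012 all 40 had a positive slope and 39 had one at an unadjusted p under 0.05, where 72.6% and 20.3% of all genes did. Without male 2012 replicate 1 the numbers in 2012 were 38 and 23 of 40, against 60.6% and 2.84% of all genes. When 2013 was held out, 100 genes were called as rising (1.02%), of which 92 were positive in 2013 and 56 passed the unadjusted threshold, against 47.2% and 2.54% of all genes. When 2014 was held out, 86 genes were called as rising (0.875%), of which 85 were positive in 2014 and 49 passed, against 63.8% and 3.82% of all genes. Falling genes did not carry over, since 0, 4 and 1 were called with these years held out (0%, 0.0407% and 0.0102%) and 1 of the 5 had a negative slope in the year held out. These readings were added after the results were seen.

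A reading across the 2 sets of libraries was added in the same way. The fits within each set had sex but not year in the model. The globin-poor set held 7 libraries of 2012, 4 of 2013 and 1 of 2014, and the globin-rich set 1, 4 and 7. Year and globin therefore cannot be told apart in these fits. In the globin-poor set male 2012 replicate 5 had a log2 globin ratio of -5.16, and the other libraries lay between -3.67 and -1.77. No fit of that set was made without it, so its part in the calls was not tested. Within the 12 globin-poor libraries alone, 70 genes rose with globin (0.712% of genes tested) and 1 fell (0.0102%). The globin-rich libraries had no part in that fit. In them 67 of the 70 had a positive slope and 38 passed an unadjusted p under 0.05, where 63.8% and 2.79% of all genes did. Without male 2012 replicate 1 in the globin-rich libraries these were 65 and 36, against 54.0% and 5.01% of all genes. Of the 70, 33 were among the 92 called over all libraries. Within the globin-rich libraries alone 7 genes were called as rising (0.0712%) and 0 as falling, with 323 genes at an unadjusted p under 0.05. All 7 were positive in the globin-poor libraries and 6 of them passed there, where 70.2% and 11.4% of all genes did.

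Which genes oppose globin depended on the scale. On the deposited scale, with the globin features left out but no rescaling, 9243 of 9849 genes fell with the globin ratio (93.8%) and 47 rose (0.477%), with a median slope of -0.25. Rescaling the other features to a fixed total gave 116 falling and 78 rising genes and a median slope of -0.05. Quantile normalisation gave 12 falling and 82 rising genes. Of the 47 genes that rose on the deposited scale, 45 were among the 92, as were 77 of the 78 with a fixed total and 78 of the 82 with quantile normalisation. The number of falling genes was larger the lower the median slope of the scale lay, and it was smallest on the median-ratio scale, where that median was 0.03.

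**Figure D4:**
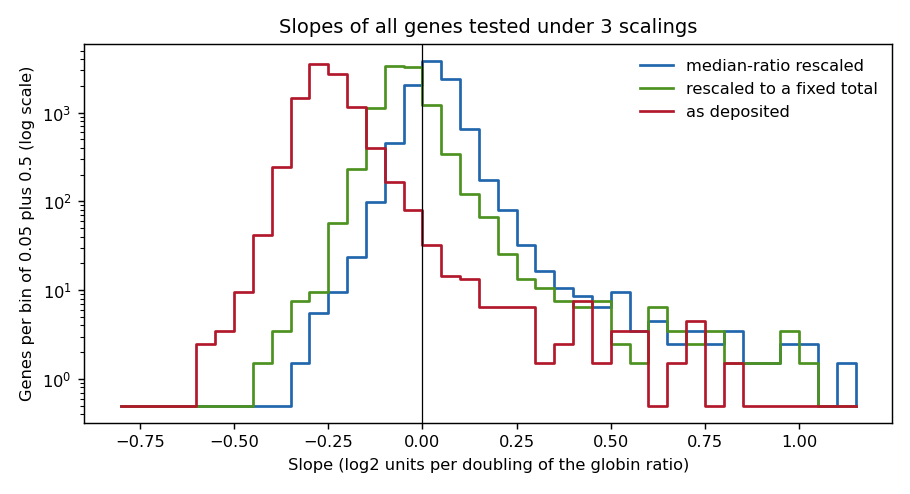
Number of genes (log scale, 0.5 added to each bin) by slope in bins of 0.05, for the median-ratio scale, a fixed total and the deposited scale. The bulk of genes shifts from a median of 0.03 on the median-ratio scale to -0.05 on the fixed total and -0.25 on the deposited scale, while the tail of steep positive slopes is present on all 3.

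Features without an Entrez Gene ID were read in a fit of each assembled feature on its own. Of 44407 features tested, 151 rose (0.340%) and 15 fell (0.0338%). Among the 30449 features without an ID, 61 rose (0.2%) and 13 fell (0.0427%). Among the 13958 with an ID, 90 rose (0.645%) and 2 fell (0.0143%). The 90 carried 82 distinct IDs, of which 75 were among the 92 genes.

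The rising features without an ID included far more abundant ones than any of the 92 genes. The 61 together took 7.63% ± 3.01 of the TPM outside globin in globin-rich libraries and 5.35% ± 1.21 in globin-poor libraries (SD, n = 12 each). As with the 92 genes, a larger share in the globin-rich set follows from the choice of rising features. The 3 most abundant had means from 13340 to 17692 rescaled TPM in globin-rich libraries and from 7981 to 10701 rescaled TPM in globin-poor libraries, and the sets overlapped in each. Their slopes ran from 0.39 to 0.41, with adjusted p from 0.000173 to 0.000559 in limma. Without male 2012 replicate 1 their slopes ran from 0.26 to 0.30 and none of the 3 passed (adjusted p from 0.109 to 0.275), and 21 of the 61 still passed.

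TR38692|c0_g1, which has no ID, lay between 10.5 and 43.4 rescaled TPM in globin-rich libraries and between 0.421 and 8.39 in globin-poor libraries, with a slope of 0.90 ± 0.06 (SE, adjusted p = 1.85e-10 in limma). TR21627|c0_g1 lay between 8.93 and 54.0 rescaled TPM in globin-rich libraries and between 0.940 and 5.71 in globin-poor libraries, with a slope of 0.84 ± 0.09 (SE, adjusted p = 4.11e-06 in limma). The sets did not overlap in these 2 features, which were picked by their difference between the sets and their level in the globin-rich set. Other rising features without an ID did not overlap either. The share without overlap over all features tested is not given here. Falling features were weaker. TR13519|c0_g1 had a median of 13.7 rescaled TPM in globin-rich libraries and 14.4 in globin-poor libraries, with a slope of -0.43 ± 0.08 (SE, adjusted p = 0.00503 in limma). TR3775|c4_g3 had a median of 2.97 rescaled TPM in globin-rich libraries and 3.68 in globin-poor libraries, with a slope of -0.43 ± 0.09 (SE, adjusted p = 0.0161 in limma). This feature is under the level set for naming and was taken after its values were seen. The sets overlapped in both falling features, and without male 2012 replicate 1 neither passed (adjusted p = 0.487 and 0.768 in limma), while 61 features then rose and 2 fell. Both rising features still passed.

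The main axis of variation of the other genes was related to globin over all libraries, but not within single years after correction. The first principal component of the 9831 genes held 29.8% of the variance and had a Pearson r of 0.61 with the log2 globin ratio over 24 libraries (permutation p = 0.00104, adjusted over 6 relations p = 0.00624). Spearman's rho was 0.58 (permutation p = 0.00342, adjusted p = 0.0205). Neither the component nor the ratio was adjusted for year, so year and globin cannot be told apart in these values. Without the 2 libraries farthest from the median ratio, male 2012 replicates 4 and 5, r was 0.56. Without the 2 libraries highest in globin, female 2014 replicate 1 and male 2012 replicate 1, it was 0.49. Within years the relation did not pass the correction. In 2012 r was 0.83 and rho 0.67 (exact permutation p = 0.0312 and 0.0831, adjusted p = 0.0938 and 0.249, n = 8). Male 2012 replicate 1 had a score of 23.9 there, and the rest of 2012 lay between -26.1 and 1.41. In 2013 r was 0.22 and rho 0.10 (exact permutation p = 0.598 and 0.840, n = 8), and in 2014 r was 0.40 and rho 0.12 (exact permutation p = 0.335 and 0.793, n = 8). The second component (16.4% of the variance) had an r of 0.13 and a rho of 0.16 (permutation p = 0.538 and 0.459). The third (7.31%) had an r of 0.36 and a rho of 0.31 (permutation p = 0.0615 and 0.137), and an r of 0.47 without the 2 libraries highest in globin.

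**Figure D5:**
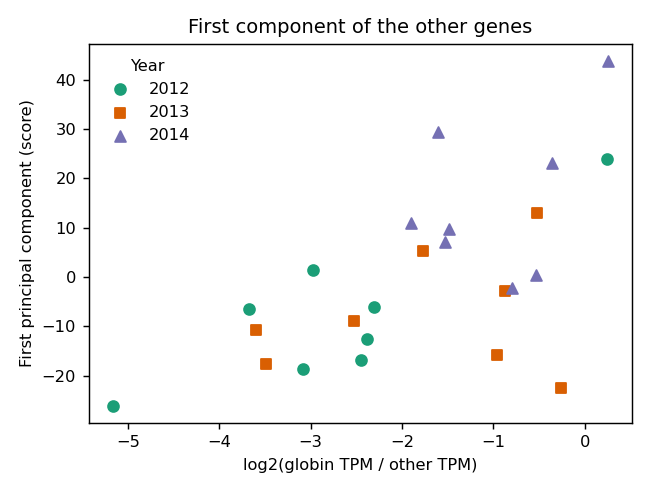
Score of each library on the first principal component of log2(rescaled TPM + 1) against log2 of the globin ratio, 1 point per library, by year. Scores rise with the ratio over all 24 libraries (r = 0.61) with wide scatter at high globin, and the 8 libraries of 2013 show little slope (r = 0.22).

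The globin ratio overlapped with the comparison of years. Without it in the model, 516 genes were higher (5.25% of genes tested) and 52 lower (0.529%) in 2014 than in 2012 in limma on the rescaled values, and 25 of the 516 were among the 92. With the ratio in the model 0 genes were called in either direction, while 1186 had an unadjusted p under 0.05 (smallest adjusted p = 0.0839). Over the 92 genes the median 2014 minus 2012 difference was 0.75 without the ratio and 0.09 with it, against 0.12 and 0.07 over all genes tested. Year and globin share part of their variation here, so their parts in these calls cannot be told apart.

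The slope was also compared between the sexes and among years as an interaction in limma. No gene was called for sex (0 calls, 280 genes at an unadjusted p under 0.05, smallest adjusted p = 0.244) or for year (0 calls, 688 genes at an unadjusted p under 0.05, smallest adjusted p = 0.645). With 8 libraries per year and 9 female libraries, the lack of calls does not show that slopes are alike.

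The number of rising genes rested in part on 1 library and on the regressor. Without male 2012 replicate 1 it was 41, and with the 12 against 12 comparison in place of the slope, with year and sex in the model, it was 1 of 9831. With day of the year added 55 genes rose and 0 fell.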

How the data were processed

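Blood RNA of beluga whales was measured in 24 libraries. Per the labels' protocols, a PAXgene kit gave the RNA and a directional NEBNext Ultra kit the libraries. Trimmomatic, Bowtie2 and RSEM 1.2.21 are named, per the submitters' processing notes, with no role or order. The transcriptome was assembled in Trinity from the reads, per the series' design text. No source used here gives its settings. The values the authors deposited are read as TPM, from their column sums of just under 1000000, and depth is unknown.

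The globin features carry Entrez Gene ID 3043 (the first, 2 features) or 3040 (the second, 3 features). Of 45872 features, 14079 carry a usable Entrez Gene ID. One further entry in that column is a date and was left out. Year and sex came from the labels. Slopes were fitted with limma 3.58.1 in R 4.3.3 (trend and robust options) on log2(rescaled TPM + 1), with the median ratio taken over 42457 features above 0 in every library. The fit was run on simulated data with independent noise for each gene. The simulation held no disturbance shared by a whole library and no rescaling step, so it does not speak to these. Permutation tests used scipy 1.17.1, two-sided, with 100000 permutations or, for 8 libraries, all of them. The first principal component was not adjusted for year or sex.

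Named genes have the largest difference between the sets among called genes with a mean of at least 10 rescaled TPM in the higher set, 2 per direction. The planned gene lists are written as symbols, which the files do not pair with IDs, so they were not analysed here. The library sets, the ID rule and the lists were chosen with earlier results of these data known. No sequences are shown because none was at hand for these features. Alternatives are given at the end.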

Additional observations from a re-analysis of the deposited data

Results flagged for a closer look

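Over 7 measures in groups of 4 to 8 libraries, 10 of 49 readings had an end library whose gap to the next, over the whole range, passed Dixon's 95% critical value. By that value's construction about 1 in 20 such groups would do so by chance. Groups and measures overlap. In male 2012 replicate 1 globin took 54.3% of TPM, while the other 7 libraries of 2012, the 4 other males included, lay between 2.72% and 16.8%. This library also had 973 zero entries, while the rest of 2012 had 334 to 442 and the other males of 2012 had 334 to 378. On the log2(rescaled TPM + 1) scale it was at 10.9 for ID 212, while the rest of 2012 lay between 5.24 and 7.82. It was at 0.0 for ID 79018, while the rest of 2012 lay between 1.77 and 2.77 and the other males from 2.21 upward.

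Zero entries numbered 663 in female 2013 replicate 2 and 295 to 463 in the rest of 2013. Male 2014 replicate 4 was at 10.7 for ID 212, with the other 5 males of 2014 between 9.03 and 9.51. For ID 3042 it was at 10.1 and they were between 8.41 and 8.89, on the same log2 scale. Its globin share of 43.8% was the highest of these males.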

How the results depend on the processing

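Counts of genes that rose and fell with globin were 92 and 1. They were 47 and 9243 with no rescaling, 53 and 9354 with neither rescaling nor covariates, and 29 and 8856 with no rescaling and 12 against 12 libraries. They were 305 and 7 without covariates, 55 and 0 with day of the year, 58 and 0 with library weights, and 1 and 0 with 12 against 12 in place of the slope. They were 273 and 6 in 2012 alone, 10 and 0 in 2012 without male 2012 replicate 1, and 0 and 0 in 2014 alone. Without male 2012 replicate 1 and female 2014 replicate 1, the libraries over 50% globin, they were 47 and 2. By feature they were 151 and 15, or 61 and 2 without male 2012 replicate 1. Rising genes numbered 22 in 2013 alone, with 1 falling. Falling genes alone moved past 1.5 times with a fixed total (116), quantile normalisation (12), a pseudocount of 0.1 (2), a mean of at least 5, the 8 highest against the 8 lowest libraries and without the 2 farthest libraries (0 in each of these 3). With each library left out the counts ran from 41 to 130 and from 0 to 2. Genes with every globin-rich library above every globin-poor one numbered 5, or 55 with 8 against 8 and 3 with no rescaling, and genes below numbered 0, or 1 and 320. The slope of ID 79018 turned to 0.24 in 2014 alone and missed the threshold in 23 other settings. Those of IDs 212 and 3042 kept their direction in all settings and missed it in 2, 12 against 12 and 2014 alone. With 12 against 12 their adjusted p was 0.0699 and 0.106. The cause was not tested. No paired analysis was possible because no label ties an animal of one group to one of another. What depth limits is unknown. Fits without the globin-heavy libraries, by set, by year held out, and those that combine choices were added after the data were seen.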
